A study of Homo sapiens with 6 samples.

Results

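Integrins, laminins and the proteins of hemidesmosomes attach epithelial cells to the sheet of matrix beneath them. This report gives the transcripts of these genes in HSC-4 cells, a human line established from a squamous carcinoma of the mouth, with and without DAPT, an inhibitor of γ-secretase. They were chosen by symbol: 26 integrin genes, 12 laminin genes and 5 genes of hemidesmosomes and their anchorage (*COL17A1*, *COL7A1*, *DST*, *PLEC* and *CD151*), which makes 43 protein-coding genes among the 58884 genes of the count tables. Gamma-secretase cuts transmembrane proteins within the membrane, and its best known substrates are the Notch receptors, whose released intracellular domain enters the nucleus and activates target genes.

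An integrin is a pair of one alpha and one beta chain, both spanning the membrane, and the pair sets which matrix protein is bound. Laminins are trimers of an alpha, a beta and a gamma chain, and laminin-332, which holds the chains of *LAMA3* and *LAMB3*, is the form laid down by keratinocytes of stratified epithelia. In the hemidesmosome, the integrin of *ITGA6* and *ITGB4* binds laminin-332 outside the cell and is tied inside the cell to keratin filaments by plectin (*PLEC*) and by the epithelial form of dystonin (*DST*).

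RNA was sequenced from 3 libraries of cells given 50 μM DAPT for 24 h and from 3 control libraries. The study's methods name the vehicle DMSO for the controls, while their count columns carry the unexplained letters GM. If these cultures had growth medium alone, DAPT and vehicle cannot be told apart. The libraries came from one cell line, and the labels do not say whether replicates were separate cultures, so p-values measure only the spread between these samples. Total counts were 12276313 to 16317672 per library, and 3 reads, the smallest signal taken here, were 0.184 to 0.244 CPM, the read count scaled to the size of the library. All 5 Notch target genes on a fixed list fell with DAPT (*HES1*, *HES2*, *HES4*, *HEY1* and *NRARP*), with log2 fold changes from -2.45 to -0.77. Of 10 markers of squamous epithelium all were detected, while *KRT14* had at most 49 reads, and 8 fell and 2 rose with DAPT.

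Control replicate 1 stood apart from the other 5 libraries on the second principal component, which held 14.7% of the variance. All 8 genes on a list of fibroblast markers were highest in that library. Their summed level was 579.9 CPM there and 50.0 to 58.5 CPM in the others. Most of the sum in the others was 1 gene, *COL1A1*, at 48.3 to 54.0 CPM, which was at 274 CPM in control replicate 1. *COL1A2*, a chain of type I collagen, had 3452 reads in control replicate 1 and 3 to 28 in each other library, and *DCN*, which encodes decorin, had 329 against 0 to 2. None of the 8 markers was at 0 in all libraries. Of 6 endothelial and 8 leukocyte markers, 1 and 2 were highest in control replicate 1. Each result named below is therefore given with and without this library where its call or direction differs. Because these are bulk samples, fewer cells of a type and less RNA per cell cannot be told apart.

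After a filter on low counts, 33 of the 43 genes were tested. An adjusted p-value is from the quasi-likelihood F test of edgeR, corrected by the Benjamini-Hochberg method over all 15001 tested genes, and a gene is said to rise or fall when it is under 0.05. By this rule 10 of the 33 genes fell with DAPT and 4 rose, 42.4% in all, while 35.2% of all tested genes were called, 18.0% lower and 17.2% higher. With all 6 libraries the share among these genes was thus near that of all genes. The median log2 fold change was -0.03 over the 33 genes and 0.01 over all tested genes, and 0 of the 14 called genes reached a 2-fold change (2.37% of all tested genes did). Without control replicate 1, *ITGA2B* reached it, as did 2.59% of all tested genes. The directions differed by class. Of 19 tested integrin genes 7 fell and 1 rose, of 9 tested laminin genes 0 fell and 2 rose, and of the 5 genes of hemidesmosomes and anchorage 3 fell and 1 rose. The difference between classes was not tested. Without control replicate 1, the same 14 genes were called, and *COL17A1* (lower), *ITGB1* (higher) and *LAMB1* (higher) were added. In that fit 17 of the 33 genes were called, or 51.5%, beside 37.1% of all genes. This difference was not tested.

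**Figure D1:**
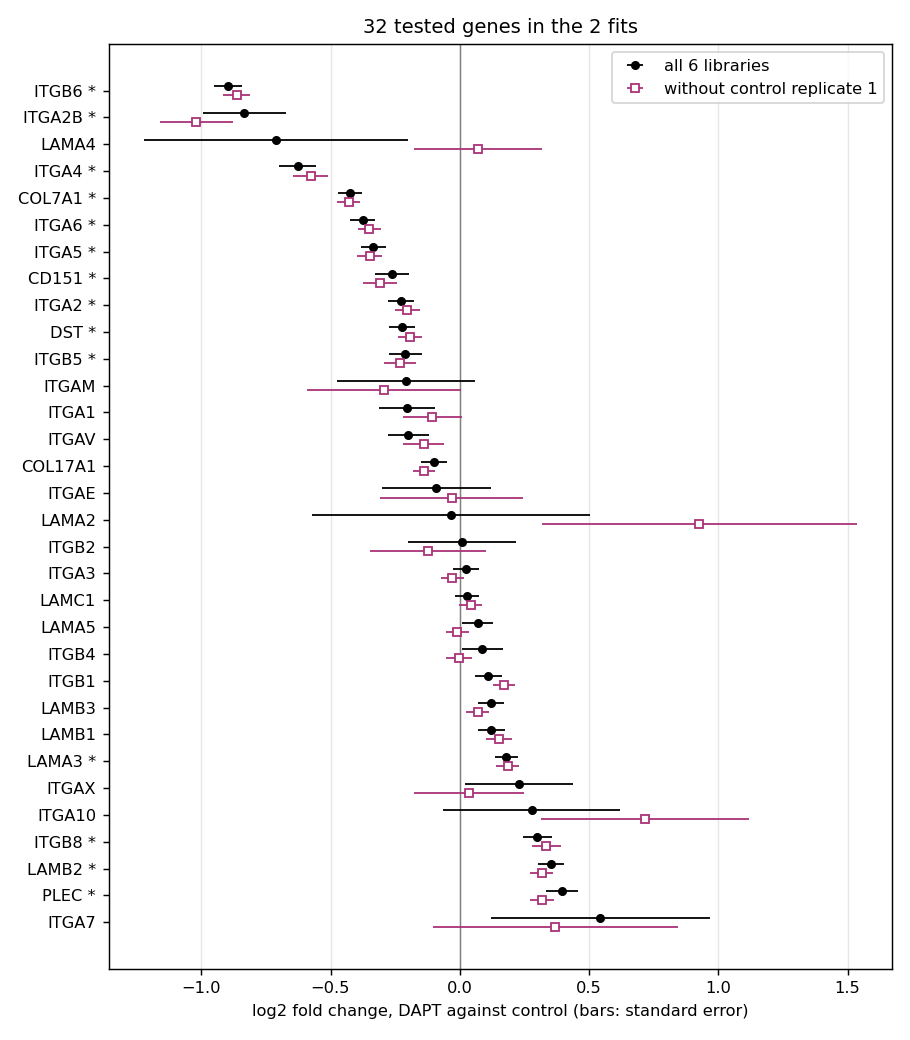
Log2 fold change of 32 of the 33 tested genes with DAPT against control, with its standard error (SE), in the fit of all 6 libraries (black circles) and in the fit without control replicate 1 (open squares); an asterisk marks an adjusted p-value under 0.05 in the first fit. With all 6 libraries *ITGB6* lay farthest below 0 at -0.90, without control replicate 1 *ITGA2B* did at -1.02, and *LAMA4* moved from -0.71 to 0.07 between the fits.

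The beta chain *ITGB6* (chromosome 2, 160099667 to 160200313, GRCh38) pairs with the alpha-v chain to bind fibronectin and the latent form of TGF-β, and is known from epithelia that heal or turn malignant. It was at 121, 113 and 115 CPM in the controls and at 63.4, 63.8 and 60.5 CPM with DAPT. Every DAPT library lay far below every control library. The log2 fold change was -0.90 (SE 0.05, adjusted p = 2.56e-11), so that the level fell by 46.2%. Without control replicate 1 the log2 fold change was -0.86. Another gene model lies over 16.7% of its exonic bases in the same orientation, and reads in that stretch went uncounted.

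*ITGB8*, which also pairs with alpha-v and binds latent TGF-β, went the other way. Its level was 187, 166 and 186 CPM in the controls and 236, 212 and 215 CPM with DAPT, without overlap. The log2 fold change was 0.30 (SE 0.06, adjusted p = 0.000288). *ITGB5*, which pairs with alpha-v as well and binds vitronectin, was at 61.4, 64.9 and 63.4 CPM in the controls and 55.9, 50.7 and 57.3 CPM with DAPT (log2 fold change -0.21, SE 0.06, adjusted p = 0.0123). Without DAPT replicate 2 its adjusted p was 0.108, and without control replicate 2 it was 0.0507. *ITGAV*, the shared alpha-v chain, was at 37.9, 31.8 and 36.3 CPM in the controls and 31.2, 32.1 and 29.0 CPM with DAPT. The groups overlapped, and its log2 fold change of -0.20 (SE 0.08) missed the threshold with an adjusted p of 0.0553, while RLE scaling gave 0.0485. Per length, that is as CPM per kilobase of exon, the ratio of *ITGB6* to *ITGB8* was 1.69, 1.79 and 1.62 in the controls and 0.702, 0.789 and 0.737 with DAPT. By this measure *ITGB6* lay above *ITGB8* in every control library and below it in every DAPT library. In CPM, without regard to length, *ITGB8* lay above *ITGB6* in every library. The order of the pair thus rests on the exon lengths used, 5785 bases for *ITGB6* and 15156 for *ITGB8*. Only the fall of the ratio does not depend on them. A two-sided exact permutation test of the per-length ratio gave p = 0.1, the smallest that 3 against 3 libraries allow (0.156 after adjustment over 14 sums and ratios).

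*ITGB1* pairs with most alpha chains and forms the receptors for collagen, fibronectin and many laminins. It was at 686, 608 and 613 CPM in the controls and 696, 676 and 688 CPM with DAPT, so that control replicate 1 alone reached the DAPT range. The log2 fold change was 0.11 (SE 0.05, adjusted p = 0.0976), and 0.17 (SE 0.04, adjusted p = 0.00289) without that library. *ITGB1* is also expressed by fibroblasts, and the part of the fibroblast-marker RNA in its control value was not tested. *ITGB4*, found mainly with *ITGA6* in hemidesmosomes, was at 544, 677 and 655 CPM in the controls and 718, 621 and 652 CPM with DAPT. These overlap, and the log2 fold change was 0.09 (SE 0.08, adjusted p = 0.434), or -0.00 (SE 0.05) without control replicate 1. *ITGB2*, the beta chain of leukocyte integrins, had at most 44 reads in a library and an adjusted p of 0.982.

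Among the alpha chains, 5 of 13 tested genes fell and 0 rose, so that 38.5% were called beside 35.2% of all genes. *ITGA6* (chromosome 2, 172427354 to 172506459), the laminin-binding partner of *ITGB4* and *ITGB1*, had the highest level per length of the 5. It was at 1169, 1110.1 and 1116 CPM in the controls and 905, 845 and 866 CPM with DAPT. The groups were clear of each other, and the log2 fold change was -0.38 (SE 0.05, adjusted p = 2.75e-06), so that the level fell by 22.9%. Per length, the ratio of *ITGA6* to *ITGB4* was 2.16, 1.65 and 1.72 in the controls and 1.27, 1.37 and 1.34 with DAPT, where control replicate 1 held the highest ratio and the groups did not overlap (exact permutation p = 0.1, two-sided, 0.156 adjusted). The ratio thus stayed above 1 in every library.

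*ITGA4*, known mainly from leukocytes, binds fibronectin and VCAM1 when paired with *ITGB1*. It was at 69.6, 65.3 and 61.0 CPM in the controls and at 44.5, 38.2 and 44.2 CPM with DAPT (log2 fold change -0.63, SE 0.07, adjusted p = 5.29e-07). *ITGA2B*, the alpha chain of the platelet fibrinogen receptor, was low in all libraries, at 6.66, 9.89 and 10.2 CPM in the controls and 4.81, 4.68 and 5.38 CPM with DAPT. Its log2 fold change was -0.83 (SE 0.16, adjusted p = 0.000353), and -1.02 without control replicate 1, whose value lay between the groups. Its platelet partner *ITGB3* had at most 3 reads in a library.

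*ITGA5* and *ITGA2*, the alpha chains of the fibronectin and collagen receptors, fell by less. *ITGA5* was at 154, 159 and 159 CPM in the controls and 121, 126 and 126 CPM with DAPT (log2 fold change -0.33, SE 0.05, adjusted p = 1.77e-05). *ITGA2* was at 145, 137 and 141 CPM in the controls and 121, 121 and 120.1 CPM with DAPT (log2 fold change -0.23, SE 0.05, adjusted p = 0.00118). In both genes the DAPT libraries agreed closely and lay below all controls. *ITGA3*, the alpha chain of the main laminin-332 receptor outside hemidesmosomes, did not pass the test. It was at 683, 762 and 772 CPM in the controls and 758, 728 and 769 CPM with DAPT, a log2 fold change of 0.02 (SE 0.05) with all libraries and of -0.03 without control replicate 1.

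*ITGA1*, another collagen receptor chain, was at 12.2 ± 1.35 CPM (SD, n = 3) in the controls and at 10.7 ± 0.118 CPM with DAPT. The groups did not overlap, yet the edgeR adjusted p was 0.152. Control replicate 1 was highest at 13.7 CPM, and the log2 fold change of -0.20 became -0.11 (adjusted p = 0.503) without it. *ITGAE*, the partner of *ITGB7* in lymphocytes of epithelia, was at 13.9 CPM in DAPT replicate 1 and at 20.3 to 23.8 CPM in the other 5 libraries (adjusted p = 0.78). *ITGAM*, *ITGAX*, *ITGA7* and *ITGA10* had 5 to 53 reads in a library, and none passed the test with or without control replicate 1.

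**Figure D2:**
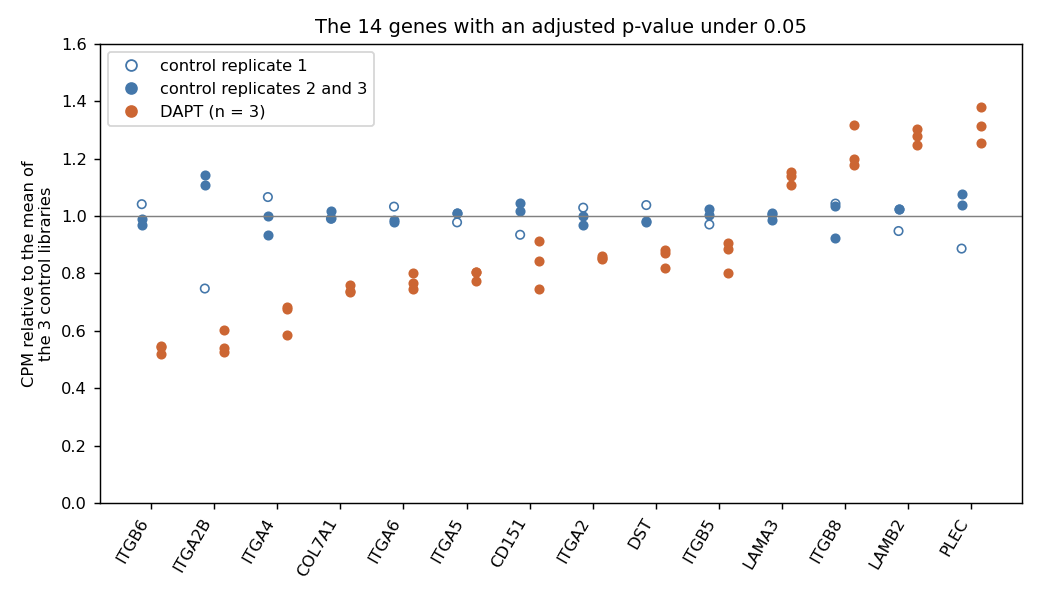
CPM of the 14 called genes in each library, divided by the mean of the 3 control libraries; open circles are control replicate 1, filled blue circles the other controls and orange circles DAPT. In all 14 genes the DAPT libraries lay wholly below or wholly above the controls, from *ITGB6*, which fell by 46.2%, to *PLEC* at 31.6% higher.

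In 17 of the 33 tested genes the DAPT libraries lay wholly on one side of the controls, 5 higher and 12 lower. This holds for 46.3% of all tested genes (23.6% higher and 22.7% lower), so the share was again near the background. Beside the 14 called genes these were *ITGA1*, *COL17A1* and *LAMB3*. Without control replicate 1 the number was 20 of 33, beside 58.3% of all genes.

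Among the 9 tested laminin chains 22.2% were called, all higher, beside 35.2% of all genes in either direction. Of laminin-332, *LAMA3* (chromosome 18, 23689443 to 23956222) rose from 465, 468 and 457 CPM to 535, 528 and 513 CPM, with a log2 fold change of 0.18 (SE 0.05, adjusted p = 0.00392). *LAMB3* was at 851, 964 and 941 CPM in the controls and at 999.8, 976 and 1019 CPM with DAPT. Its groups did not overlap, but the log2 fold change of 0.12 (SE 0.05) had an adjusted p of 0.0726. Both had positive values, of which that of *LAMA3* passed the test. Per length, the ratio of *LAMA3* to *LAMB3* was 0.173, 0.154 and 0.154 in the controls and 0.169, 0.171 and 0.159 with DAPT, which overlap (exact permutation p = 0.4, two-sided, 0.431 adjusted). The exons of *LAMA3* include those of a long and a short form, which gene counts do not separate, so its level per length may be too low.

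*LAMB2* (chromosome 3, 49121114 to 49133118), the beta chain of laminin-521, rose most. It was at 279, 302 and 301 CPM in the controls and at 383, 367 and 376 CPM with DAPT, without overlap. The log2 fold change was 0.35 (SE 0.05, adjusted p = 8.07e-06), a level 27.7% higher. The other chains of that trimer did not pass the test: *LAMA5* was at 723, 852 and 874 CPM in the controls and 825 to 875 CPM with DAPT (log2 fold change 0.07, or -0.01 without control replicate 1), and *LAMC1* had a log2 fold change of 0.03 (SE 0.05). *LAMB1*, the beta chain of laminin-511, was at 142, 133 and 136 CPM in the controls and 153, 142 and 153 CPM with DAPT. Its log2 fold change was 0.12 (adjusted p = 0.0719), and 0.15 (adjusted p = 0.0175) without control replicate 1.

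Scaling by library size alone, in place of TMM factors, moved the called genes of the class to 7 higher and 10 lower, with *ITGB1*, *LAMB1* and *LAMB3* added to the higher ones. The same scaling moved the split over all genes from 2574 higher and 2707 lower to 3445 higher and 2156 lower. The directions of the 14 called genes held under it.

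*LAMA4*, the alpha chain of laminins of blood vessels and mesenchyme, and *LAMA2*, that of muscle, had their highest counts in control replicate 1. *LAMA4* had 105 reads in that library, 33 and 24 in the other controls and 28 to 35 with DAPT. *LAMA2* had 20 reads there and 2 to 13 in the others. *ITGA8*, an alpha chain of mesenchymal cells, had 134 reads in control replicate 1 and at most 2 in any other library, so that it failed the filter. The 3 genes followed the fibroblast markers in being highest in that library, and how far they come from the same source was not tested. Being highest there was not particular to them. *ITGA6*, for one, was at 1169 CPM in control replicate 1 and at 1110.1 and 1116 CPM in the other controls. The log2 fold change of *LAMA4* was -0.71 (adjusted p = 0.345) with all libraries and 0.07 (adjusted p = 0.856) without control replicate 1.

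**Figure D3:**
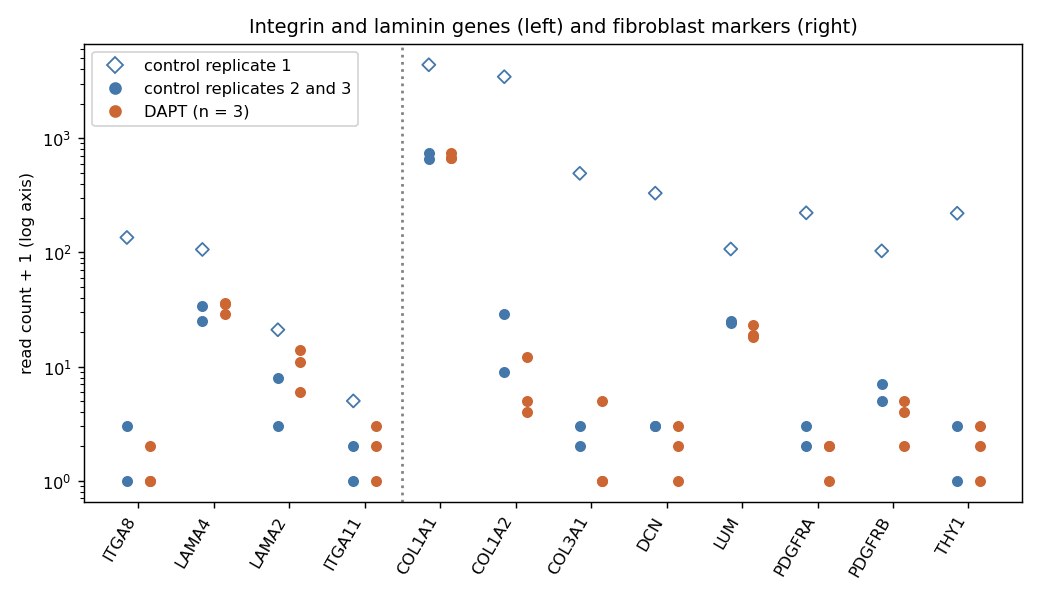
Read counts plus 1, on a log axis, of *ITGA8*, *LAMA4*, *LAMA2* and *ITGA11* and of 8 fibroblast markers in each library; diamonds are control replicate 1, blue circles the other controls and orange circles DAPT. For *ITGA8* the diamond stands for 134 reads and every circle for at most 2, and for each of the 8 markers the diamond is the highest point.

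The plaque and anchorage genes split. *PLEC*, which links integrins to keratin filaments, was at 456, 534 and 553 CPM in the controls and rose to 676, 646 and 709.9 CPM with DAPT. The log2 fold change was 0.40 (SE 0.06, adjusted p = 9.1e-05), and 0.32 without control replicate 1, its lowest library. *DST*, whose epithelial form is the other plaque linker, fell from 232, 218 and 219 CPM to 197, 183 and 194 CPM (log2 fold change -0.22, SE 0.05, adjusted p = 0.0015). The counted exons of *DST* also include neuronal and muscle forms, which these counts do not separate. The gene counts of *PLEC* and *DST* thus moved in opposite directions, each without overlap between the groups. Whether the forms found in the plaque did so was not measured.

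*COL17A1*, the transmembrane collagen of hemidesmosomes, had the highest level per length of the class in the controls. It was at 1464, 1598 and 1601 CPM in the controls and at 1448, 1459.65 and 1443 CPM with DAPT. All DAPT values were lower, the nearest control being replicate 1, and the log2 fold change was -0.10 (SE 0.05, adjusted p = 0.12), or -0.14 (SE 0.04, adjusted p = 0.0123) without that library. *COL7A1* (chromosome 3, 48564073 to 48595267), the collagen of the anchoring fibrils beneath hemidesmosomes, was at 289.9, 290.4 and 298 CPM in the controls and 215, 222 and 216 CPM with DAPT. This fall was one of the tightest, with a log2 fold change of -0.42 (SE 0.05, adjusted p = 3.46e-07), so that the level fell by 25.5%. *CD151*, a tetraspanin that binds laminin-binding integrins, was at 154, 172 and 168 CPM in the controls and 122, 139 and 150.2 CPM with DAPT (log2 fold change -0.26, SE 0.07, adjusted p = 0.00496). Its groups were separated by a small gap between DAPT replicate 3 and control replicate 1.

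Per length, the order of levels was led in the controls by *COL17A1* at 219.97 ± 11.1 (SD, n = 3) CPM per kilobase, *LAMB3* at 198 ± 12.8 and *ITGA6* at 169 ± 4.84. In every control library *COL17A1* lay above *LAMB3*, though their ranges over these libraries overlapped, and *ITGA6* lay below both. With DAPT, *LAMB3* was at 215 ± 4.61, *COL17A1* at 205 ± 1.17 and *ITGA6* at 130.01 ± 4.52, so that *LAMB3* lay above *COL17A1* in every DAPT library. *ITGB6* went from rank 16 to rank 19 of 43. The summed level of all alpha chains was 2317, 2314 and 2335 CPM in the controls and 2018, 1936 and 2001 CPM with DAPT, and that of all laminin chains was 4066, 4372 and 4319 CPM against 4565, 4543 and 4635 CPM. Neither pair overlapped (exact permutation p = 0.1, two-sided, 0.156 adjusted). *ITGA6* and *ITGA3* held most of the first sum, and *LAMB3* and *LAMA5* were large terms of the second.

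**Figure D4:**
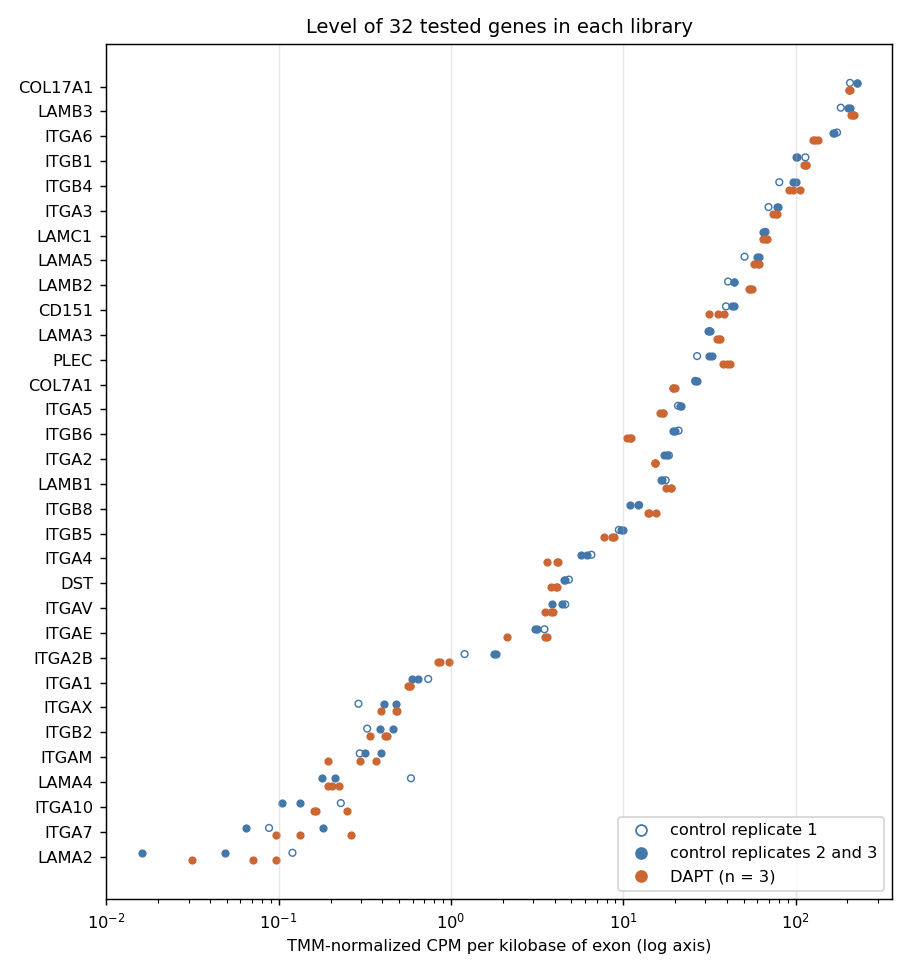
Level of 32 of the 33 tested genes in each library, as TMM-normalized CPM per kilobase of exon on a log axis, ordered by the control mean; open circles are control replicate 1, filled blue circles the other controls and orange circles DAPT. Levels run from *COL17A1* at 219.97 to *LAMA2* at 0.0617 in the control means.

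The other 10 of the 43 genes failed the filter. *ITGAD* and *LAMC3* had 0 reads in all libraries, which allows up to 3 reads, or 0.244 CPM in the shallowest library. *ITGB7* had 5 to 8 reads. *ITGA9*, *ITGA11*, *ITGAL*, *ITGB3*, *LAMA1* and *LAMB4* had at most 4, and the tenth was *ITGA8*. These are mainly chains of leukocytes, platelets, muscle and mesenchyme. For *ITGB3*, 51.6% of exonic bases lie in another gene on the same strand, where reads were not counted.

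The windows before the start of transcription were searched for the core of the binding motif of RBPJ, the DNA-binding partner of Notch, and for the AP-1 motif, long studied in the promoters of laminin-332 genes. RefSeq promoter sequences (GRCh38.p14) were found for 29 of the 43 genes, in 38 windows, and the 250 bases before each start were read on both strands. The RBPJ core was searched as TGGGAA on one strand and as TTCCCA on the other. It was in 3 of the 38 windows (7.89%) and in 20.8% of all 35116 windows. The AP-1 motif, TGANTCA, which reads the same on both strands, was in 2 of the 38 windows (5.26%) and in 6.57% of all windows. In the 15093 windows of tested protein-coding genes the shares were 19.2% for the RBPJ core and 4.63% for the AP-1 motif. The AP-1 share of the 38 windows was thus below the first background and above the second. Of the 9 genes called lower that had a window, *COL7A1* held the RBPJ core. Of the 3 called higher that had a window, *LAMB2* held it and *LAMA3* held the AP-1 motif. The window of *LAMA3* (23872770 to 23873069) lies at an inner start, as the gene begins at 23689443. The gene counts of *LAMA3* do not separate its forms. A match is a description of the letters only. Stretches that lie in no exon of the gene in the count tables are printed 5′ to 3′ for *ITGB6*, which had the smallest adjusted p of the class and holds neither motif, for *COL7A1*, whose RBPJ cores lie 1 base apart as an inverted repeat, and for *LAMB3*, a laminin-332 chain with an AP-1 motif before an inner start. Capitals mark the motifs, and all are on the minus strand of GRCh38.p14.
ITGB6, chr2:160200314-160200522: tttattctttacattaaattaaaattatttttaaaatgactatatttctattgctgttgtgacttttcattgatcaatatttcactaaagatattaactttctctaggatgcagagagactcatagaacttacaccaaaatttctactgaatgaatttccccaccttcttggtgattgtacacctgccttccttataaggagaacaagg
COL7A1, chr3:48595330-48595579: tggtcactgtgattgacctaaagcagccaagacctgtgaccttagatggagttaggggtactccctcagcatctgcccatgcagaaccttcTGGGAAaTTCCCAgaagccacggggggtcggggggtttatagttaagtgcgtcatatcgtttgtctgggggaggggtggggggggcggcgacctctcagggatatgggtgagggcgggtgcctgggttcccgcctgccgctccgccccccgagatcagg
LAMB3, chr1:209651395-209651624: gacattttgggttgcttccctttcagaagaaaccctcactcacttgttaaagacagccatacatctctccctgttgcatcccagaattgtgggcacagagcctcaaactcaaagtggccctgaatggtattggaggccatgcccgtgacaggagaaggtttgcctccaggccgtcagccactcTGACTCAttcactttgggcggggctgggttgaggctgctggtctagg

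Partners of these genes were taken from lists written from general knowledge. Inside the cell, 10 of 28 tested genes of the adhesion plaque were called, 8 lower and 2 higher. That is 35.7% beside 35.2% of all genes, a share at the background. Without control replicate 1, 9 were called, 7 lower and 2 higher, which is 32.1% beside 37.1% of all genes. *TNS4*, a tensin that binds beta tails, fell from 116, 119 and 117 CPM to 58.1, 48.1 and 50.3 CPM, a log2 fold change of -1.17 (SE 0.06, adjusted p = 3.59e-12). *PARVB*, a parvin, was at -0.65. *PARVA*, another parvin, was at 0.20, and *PTK2*, which encodes focal adhesion kinase, at 0.15. Both calls were unstable. *PARVA* was called in 3 of 6 fits that each left out 1 library (largest adjusted p 0.202) and not by DESeq2 (adjusted p = 0.0965), and *PTK2* in 2 of 6 (largest adjusted p 0.157). *TNS1* (-0.46, called in 1 of those 6 fits), *TGFB1I1* (-0.45) and *FERMT1* (-0.32) were lower as well. *FERMT1* encodes kindlin-1, an activator of integrins, and is on the anchorage list too. Without control replicate 1 *TNS1* was at -0.44 and was not called (adjusted p = 0.0821). *PARVA* (0.25, adjusted p = 0.00714) and *PTK2* (0.20, adjusted p = 0.000906) were called in that fit. The median over these 28 genes was -0.04.

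Outside the cell, 8 of 19 tested genes of integrin ligands and basement membranes were called, 6 lower and 2 higher, and 12 without control replicate 1, 9 lower and 3 higher. These are 42.1% and 63.2%, beside 35.2% and 37.1% of all genes. The calls added in the second fit were *FN1*, *COL1A2*, *AGRN* (-0.14, adjusted p = 0.0194) and *NTN4* (0.18, adjusted p = 0.0184). *COL1A2*, a fibroblast marker above, had 28 and 8 reads in the remaining controls and 3 to 11 with DAPT. Its groups overlapped, at a log2 fold change of -1.67 (adjusted p = 0.0225). *NID1*, which joins laminin to collagen IV, was at 6.48, 3.18 and 3.48 CPM in the controls and 1.30, 0.877 and 1.15 CPM with DAPT (log2 fold change -1.99, or -1.56 without control replicate 1). *THBS1*, a secreted thrombospondin, was at 354 CPM in control replicate 1, 237 and 261 CPM in the other controls and 169 to 179 CPM with DAPT, with a log2 fold change of -0.70 (adjusted p = 0.0359) and of -0.51 (adjusted p = 5.85e-09) without that library. It was called in 2 of the 6 fits without 1 library, with adjusted p up to 0.117. *FN1*, which encodes fibronectin, was at 453 CPM in control replicate 1, 262 and 268 CPM in the other controls and 203 to 223 CPM with DAPT. It missed the threshold with all libraries (adjusted p = 0.156) and passed it without control replicate 1 (log2 fold change -0.31, adjusted p = 8.72e-06). *COL18A1* (-0.48) and *TNC* (-0.34) fell, and *FRAS1* (0.44), a protein that holds epithelium to mesenchyme, and *COL4A5* (0.15, called in 4 of 6 such fits) rose. The median log2 fold change was -0.28 over these 19 genes, and -0.16 without control replicate 1.

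Of 13 tested genes of keratin anchorage, laminin receptors and tetraspanins, 7 fell and 0 rose. These are 53.8%, beside 35.2% of all genes called and 18.0% called lower. Some of these calls were unstable. *CD9* was called in 3 of 6 fits without 1 library (largest adjusted p 0.0869). *CD81*, whose groups overlapped only through control replicate 1, was called in 2 of 6 (largest adjusted p 0.117). Both were called without that library, *CD9* at -0.21 (adjusted p = 0.000361) and *CD81* at -0.27 (adjusted p = 0.000104). *KRT5*, a keratin of the filaments that plectin and dystonin hold, fell from 2635, 2757 and 2709.9 CPM to 1362, 1276 and 1308 CPM (log2 fold change -1.04, SE 0.05, adjusted p = 3.34e-13). *KRT14*, its usual partner, was nearly absent, with 36 to 49 reads in the controls and 0 to 11 with DAPT. It has close copies in the genome, and reads that mapped to several places were not counted, so its value is uncertain. *KRT15*, another basal keratin, had a log2 fold change of -0.45 and was at 1105, 1127 and 1125 CPM in the controls. *BCAM*, a receptor for the chain of *LAMA5*, and *DAG1*, which encodes dystroglycan, were at 0.07 and -0.05 and did not pass the test. Without control replicate 1 *BCAM* was at -0.0087. The median over these 13 genes was -0.17.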

How the data were processed

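RNA of HSC-4 cells was sequenced as 75 bp single-end reads from a directional mRNA kit. The authors used Trim Galore for trimming and HISAT2 for mapping to GRCh38, and deposited raw read counts per Ensembl gene from featureCounts 1.6.3. Per the file headers, exons of Ensembl release 96 were counted on the strand of the gene, without normalization. By the counting defaults, reads with several alignments or genes were not counted. Over 78 non-coding genes that lie within exons of a well expressed gene on the other strand, the median read density was 1.89% of that gene's, so the counts are of the transcript strand. The submitters' processing notes also list HTSeq and DESeq2, with no role.

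Symbols were matched by identifier to GENCODE release 44 (58472 of 58884 genes). Groups and replicate numbers came from the sample titles. Tests used edgeR 4.0.16 in R 4.3.3, with filterByExpr (minimum count 10), TMM factors, a robust quasi-likelihood fit without a replicate block, and Benjamini-Hochberg adjustment over 15001 genes. The paper names edgeR, and its text gives no test. CPM are TMM-normalized and standard errors come from the F statistic. Medians and sums are descriptions. The floor of 3 reads covers counting error only, while the standard errors also hold the spread between libraries.

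Values in every library are given for each called gene and for 11 core genes, 1 of which is not reported here though it stays in all counts, sums and medians, and from partner lists the called genes with the 4 largest changes in each direction. *SDC1* and other called partners are only counted. *CD9*, *CD81*, *FN1*, *COL1A2*, *AGRN*, *NTN4*, *BCAM* and *DAG1* were named after their values were seen. The genes, lists and tests were chosen with earlier results of these data known. The procedures were tested on simulated data. Alternatives were DESeq2 1.42.0, other scalings and filters, an adjusted p-value under 0.01, a replicate block and leaving out each library.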

Additional observations from a re-analysis of the deposited data

How the results depend on the processing

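Of 426 member values under the alternatives, 399 kept their direction and side of the threshold, 10 passed it newly, 3 lost it and 14 changed sign. The 14 called genes were called by DESeq2 and with the replicate block too, and 13 of them in all 6 fits without 1 library, *ITGB5* being the exception. With the replicate block 14 members and 5295 genes were called. The pairing had no support in the labels, and deviations of same-numbered libraries correlated at 0.0102, 0.0282 and -0.0162. Leaving out 1 library gave 13 to 17 members, 4 to 6 higher and 9 to 11 lower, 17 to 21 without overlap, 4174 to 5618 genes, 16 to 27 partners, 1 to 5 of them higher and 14 to 22 lower. Library size scaling gave 7 members higher. An adjusted p-value under 0.01 gave 3338 genes, 1516 higher, and 15 partners, 1 higher. DESeq2 called 3974 genes. *ITGAV* was called with RLE scaling (0.0485), with 10 counts in every library (0.0494) and without control replicate 2 (0.0146). Without a filter *LAMA4* was called at -0.70 (adjusted p = 0.0247).

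The sign changes were in genes that the test of all 6 libraries did not call. Without control replicate 1 they were *ITGA3* (-0.03), *ITGB2* (-0.12), *ITGB4* (-0.0028), *LAMA2* (0.93), *LAMA4* (0.07) and *LAMA5* (-0.0098). *ITGB2* was at -0.0027 without control replicate 3, -0.05 without DAPT replicate 2 and -0.03 without DAPT replicate 3. *ITGAE* was at 0.13 and *LAMA2* at 0.33 without DAPT replicate 1, and *ITGAM* at 0.0062 without DAPT replicate 2. *LAMA2* was at 0.0412 with DESeq2 and 0.0119 with library size scaling. Over the fits without 1 library, *ITGA3* ranged from -0.0287 to 0.0518, *ITGAE* from -0.223 to 0.132, *ITGAM* from -0.442 to 0.00616, *ITGB2* from -0.123 to 0.145, *ITGB4* from -0.00281 to 0.145, *LAMA2* from -0.427 to 0.927, *LAMA4* from -0.984 to 0.0697 and *LAMA5* from -0.00976 to 0.117. The cause was not tested. The SE was 0.54 for *LAMA2* and 0.51 for *LAMA4*, the largest among the members.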
